A study of Mus musculus with 12 samples.

Results

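The genes described here encode 10 secreted proteins of the extracellular matrix that were listed by name: Fn1, Tnc, Thbs1, Thbs2, Sparc, Postn, Cyr61, Ctgf, Wisp1 and Wisp2. All 10 were found under these older symbols among the 24054 genes of the count table, and all 10 passed the filter on low counts that left 14876 genes. They were measured by RNA sequencing of polyadenylated RNA from primary mouse embryonic fibroblasts (MEFs) of 4 genotypes, with 3 libraries per genotype and 12 in all. The genotypes were WT, Blm -/- (Blm KO), Recql -/- (Recql KO) and Blm -/- Recql -/- (double KO), and Blm and Recql encode DNA helicases of the RecQ family. All cultures were kept under the same conditions, with 10% serum, 5% CO2 and 3% O2. Strain, embryonic age and the targeted alleles are not described in the labels. Nor do they tell if the 3 cultures of a genotype were from separate embryos, so the p-values measure the scatter of these libraries. Y-linked and Xist transcripts, given below, differed between libraries of each knockout genotype, so that those 3 were not all repeats of 1 culture.

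Matricellular proteins are secreted into the matrix and act less as scaffolding than as signals, by binding integrins, other receptors, growth factors and collagen. The CCN proteins are modular members of this class, and Cyr61 (CCN1) and Ctgf (CCN2) are the textbook targets of YAP and TAZ, coactivators that enter the nucleus of spread or stretched cells and work through the TEAD transcription factors, while the Hippo kinases LATS1 and LATS2 hold them back. Fibroblasts are a main source of these proteins in developing connective tissue and in wounds.

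The promoter windows of 3 of the genes are shown because Cyr61 is the gene for which TEAD control is best known, and because Tnc and Thbs2 stood higher in the same libraries. RefSeq windows of build GRCm38.p6, from 250 bases before to 50 bases after an annotated start, were matched for 5 of the 10 genes (Tnc, Thbs2, Sparc, Postn and Cyr61), with 7 windows in all. The single capital marks the annotated start, and the run of 6 capitals in Cyr61 is the match to the TEAD motif. Each is written 5′ to 3′ along the gene, on the minus strand of the chromosome.
Cyr61, chr3:145649936-145650235: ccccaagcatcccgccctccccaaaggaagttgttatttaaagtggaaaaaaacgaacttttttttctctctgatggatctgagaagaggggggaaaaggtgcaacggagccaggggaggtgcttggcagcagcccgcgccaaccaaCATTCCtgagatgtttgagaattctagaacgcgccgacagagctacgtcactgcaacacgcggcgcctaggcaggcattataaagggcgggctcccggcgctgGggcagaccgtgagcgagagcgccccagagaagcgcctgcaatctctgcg
Tnc, chr4:64046966-64047265: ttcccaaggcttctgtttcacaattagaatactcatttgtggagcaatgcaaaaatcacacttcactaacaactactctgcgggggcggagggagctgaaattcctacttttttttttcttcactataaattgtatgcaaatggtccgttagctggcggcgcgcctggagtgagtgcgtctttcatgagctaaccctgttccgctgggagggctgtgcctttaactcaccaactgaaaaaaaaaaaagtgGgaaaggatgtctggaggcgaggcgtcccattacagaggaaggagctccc
Thbs2, chr17:14694213-14694512: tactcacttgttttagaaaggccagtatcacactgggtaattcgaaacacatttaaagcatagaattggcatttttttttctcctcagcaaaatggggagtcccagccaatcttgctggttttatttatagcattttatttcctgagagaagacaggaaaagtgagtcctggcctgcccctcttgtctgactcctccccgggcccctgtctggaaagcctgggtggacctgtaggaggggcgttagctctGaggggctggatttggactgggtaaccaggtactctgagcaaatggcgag
The TEAD motif GGAATG, in either orientation, was found once in the Cyr61 window, as CATTCC from base -103 relative to the start, and in none of the other 6 windows. Among all 32851 windows of the table, 14.7% held it. The AP-1 motif TGANTCA (in 7.81% of all windows) and the CArG box bound by SRF (in 1.63%) were found in none of the 7 windows, on either strand. With a single match, no 2 motifs overlapped. A match describes letters only, and nothing follows for the factors from their absence in 300 bases.

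Facts of the whole series bear on how the genotype names are read. Library totals ranged from 47758552 to 59296354 expected counts. All levels are in CPM, the usual unit of counts scaled to library size, after TMM scaling of the library sizes (trimmed mean of M values). The Blm transcript had a mean of 20.7 ± 1.8 CPM (SD, n = 3) in WT, 4.15 ± 1.34 in Blm KO and 5.48 ± 1.55 in double KO. For the Recql transcript the means were 27.7 ± 1.92 (WT), 25.3 ± 4.25 (Recql KO) and 26.2 ± 8.43 (double KO), and neither difference from WT passed (edgeR adjusted p = 0.642 and 0.928). Counts summed over a gene cannot reveal an allele that spares the transcript, so every direction below rests on the labels, and "Recql KO" means the libraries so labelled. The libraries labelled Recql KO stood apart from the other 9 on the first principal component (74.1 to 79.7 against -54.4 to -7.02, 47.3% of the variance). All 3 WT libraries and 1 library of each other label were high in Y-linked transcripts (229 to 282 CPM summed over 4 genes), and the other 6 were at 0.679 to 28.7 CPM. Xist, made from the inactive X chromosome, was at 0.111 to 11.8 CPM in the former and 309 to 474 CPM in the latter, and Recql KO replicate 2 held both kinds (28.7 CPM Y-linked, 309 CPM Xist). Between libraries of 1 genotype, chi-square per degree of freedom was 26.8 to 176, beyond counting error. Of the fibroblast markers, Col1a1 was at 4550 to 15100 CPM, while Lum was as low as 1.31 CPM in a Recql KO library and Dcn as low as 9.65 CPM in a Blm KO library. The defining endothelial, blood cell and epithelial markers Pecam1, Ptprc and Epcam stayed at or under 0.57, 1.09 and 0.424 CPM in every library. Other markers of these lists were higher, with Kdr up to 13.5, Tek up to 7.94, Krt19 up to 22.3, Msln up to 40.9 and Upk3b up to 43.2 CPM. The epithelial and mesothelial sum was 37.4 to 120 CPM in WT, 29.3 to 42.1 in Blm KO, 10.8 to 18.1 in Recql KO and 67.1 to 100 in double KO, and the endothelial sum 12.4 to 20.5, 3.4 to 11.6, 3.35 to 4.98 and 10.6 to 15.3 CPM in the same order.

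The 10 genes are among the most abundant transcripts of these cells. Together they took 2.71% to 2.89% of all counts in the WT libraries, 2.96% to 4.13% in Blm KO, 3.09% to 3.6% in Recql KO and 3.33% to 3.78% in double KO, so that each knockout library lay above each WT library. Fn1 and Thbs1 ranked 1 and 2 among the 14876 genes by mean CPM, Sparc ranked 9, and Wisp2 was last of the 10 at rank 1884. Per kilobase of annotated exon, a scale on which genes can be set against each other, Thbs1 had the highest mean level over the 12 libraries (1820 CPM per kb), followed by Sparc (1580) and Fn1 (1290). Cyr61 (540), Postn (404), Ctgf (380), Tnc (280) and Thbs2 (175) came next, and Wisp1 (74.3) and Wisp2 (67) were lowest.

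The genes differed widely in how far they moved between libraries. The highest of the 12 libraries exceeded the lowest 4.38-fold for Tnc, 3.92-fold for Wisp2, 3.36-fold for Postn and 3.27-fold for Wisp1. The same ratio was 1.56 for Cyr61, close to the median of 1.51 over the 2243 genes that averaged 100 CPM or more, and 2.03 to 2.91 for the other 5 genes.

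**Figure D1:**
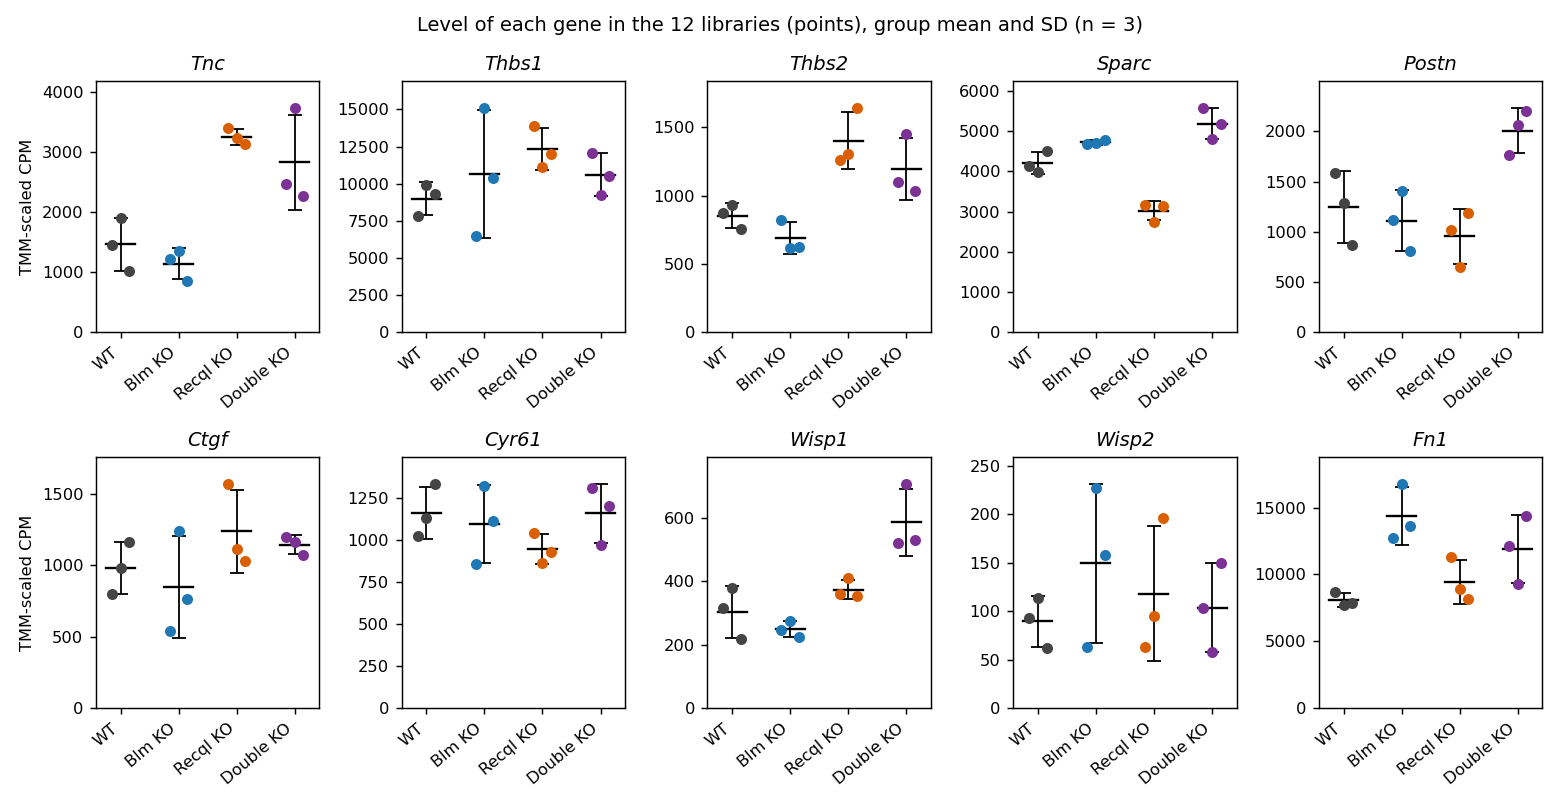
TMM-scaled CPM (vertical axis, from 0, a separate scale for each gene) of the 10 genes in the 12 libraries, with the libraries of each genotype in order of replicate number and bars for the group mean and SD (n = 3). Tnc and Thbs2 are higher in all libraries labelled Recql KO or double KO than in any WT or Blm KO library, Sparc is lowest in Recql KO, and Wisp1 and Postn are highest in double KO.

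Differences were tested with edgeR across all 14876 genes, and a gene is said to have risen or fallen where its Benjamini-Hochberg adjusted p over all genes was under 0.05. Of the 10 genes, 3 passed in Recql KO vs WT, where 29.9% of all genes did. Of these, 2 rose (14.2% of all genes did) and 1 fell (15.6%). In Double KO vs Blm KO 3 rose (1.96% of all genes passed, 0.934% upward and 1.02% downward), and in Double KO vs Recql KO 3 rose (24.7% passed, 13.2% upward and 11.6% downward). No gene of the 10 passed in Blm KO vs WT (0.753% of all genes, 0.363% upward and 0.39% downward) or in Double KO vs WT (0.121%, 0.0739% upward and 0.0471% downward). For the interaction, the difference Double KO minus Blm KO less the difference Recql KO minus WT, 2 of the 10 passed, both upward (10.4% of all genes, 5.86% upward and 4.58% downward). At an unadjusted p under 0.05, edgeR had 1 of the 10 in Blm KO vs WT (18.9% of all genes) and 6 of the 10 in Double KO vs WT (10.8%). It had 3 in Recql KO vs WT (42.2%) and 4 in Double KO vs Blm KO (23.3%). In Double KO vs Recql KO it had 3 (38.4%), and for the interaction 3 (28.3%). By its adjusted p, DESeq2 called 1 (Fn1) in Blm KO vs WT and 3 (Tnc, Sparc and Wisp1) in Double KO vs WT. Over all genes it called 938 and 338, where edgeR called 112 and 18. When the fit was restricted to libraries high in Y-linked transcripts, which keeps 1 library per knockout genotype, none of the 10 passed in any comparison. In Recql KO vs WT the differences were then 1.21 for Tnc, 0.56 for Thbs2 and -0.41 for Sparc (edgeR adjusted p = 0.0841, 0.0909 and 0.153). For Blm KO, Recql KO and double KO against WT, the median log2 fold change of the 10 was -0.12, 0.32 and 0.39, beside 0.00, -0.01 and 0.01 over all genes tested. The 3 comparisons with WT share the same WT libraries, and the comparisons with double KO share its libraries.

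**Figure D2:**
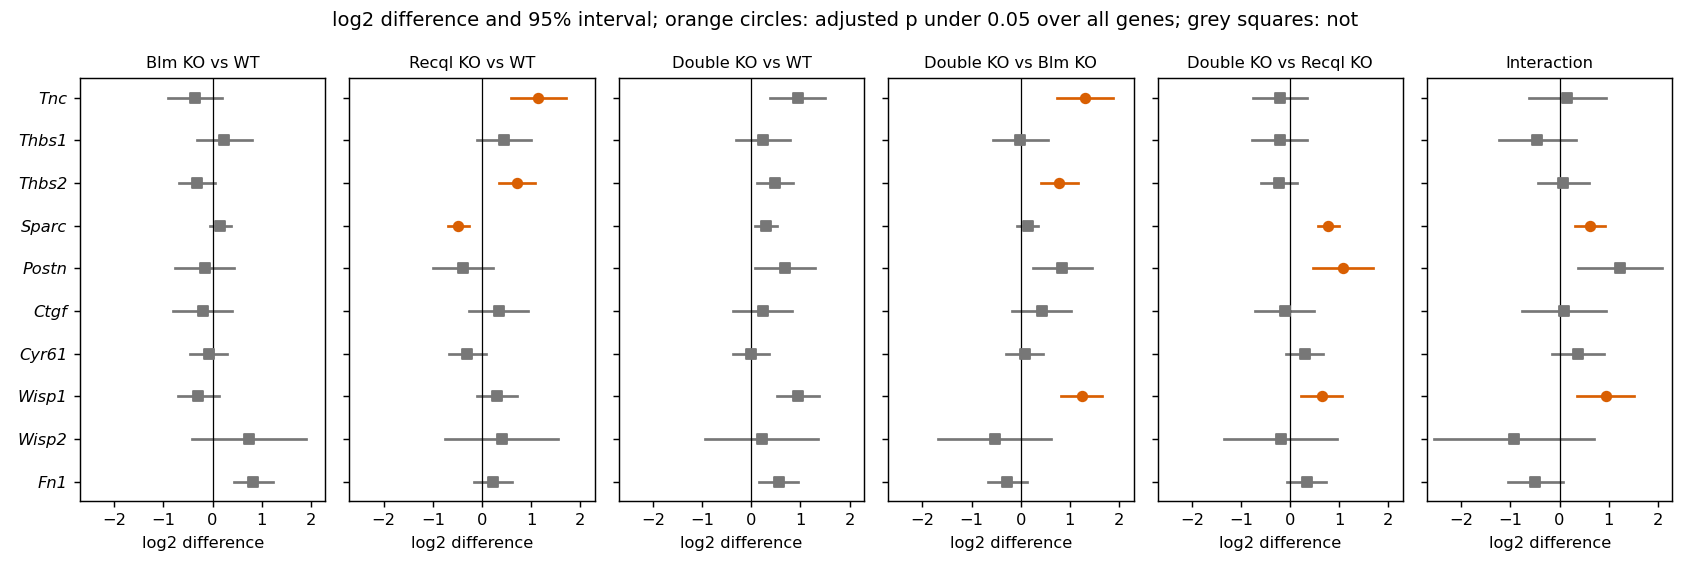
log2 difference (horizontal axis) of each gene in 6 comparisons with its 95% interval from edgeR, where orange circles passed at an adjusted p under 0.05 over all genes and grey squares did not. The last panel shows the interaction. Tnc and Thbs2 pass where the Recql KO label is added to WT or to Blm KO, and Cyr61, Ctgf, Thbs1, Wisp2 and Fn1 pass in no panel.

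Tnc (chr4:63959785-64047015, minus strand of mm10 in GENCODE M21) encodes tenascin-C, a large glycoprotein made in developing and wounded connective tissue that loosens the adhesion of cells to fibronectin. The WT libraries had 1460, 1910 and 1030 CPM, the Blm KO libraries 1220, 1360 and 852, the Recql KO libraries 3400, 3240 and 3140 and the double KO libraries 2480, 3740 and 2280. Every library labelled Recql KO or double KO was above every other library, while WT and Blm KO overlapped, as did Recql KO and double KO. Tnc rose 2.22-fold in Recql KO against WT (1.15 ± 0.25 SE on the log2 scale, edgeR adjusted p = 0.00806). It rose 2.47-fold in double KO against Blm KO (1.31 ± 0.26, edgeR adjusted p = 0.0324). The second call was lost when any of 4 libraries was left out (edgeR adjusted p up to 0.156 without Blm KO replicate 3) and in a fit on those groups alone (0.12). Against WT, Tnc in double KO was 1.93-fold higher and did not pass (edgeR adjusted p = 0.192), although the libraries did not overlap. The interaction did not pass (0.15, 95% interval -0.63 to 0.94, edgeR adjusted p = 0.808).

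Thbs2 (chr17:14665500-14694235, minus strand) encodes thrombospondin-2, a secreted protein that restrains angiogenesis and shapes collagen fibrils. WT replicates 1 to 3 had 871, 932 and 753 CPM, those of Blm KO 822, 613 and 625, those of Recql KO 1260, 1300 and 1640 and those of double KO 1100, 1450 and 1030. The order of the groups was that of Tnc, with no overlap between the lower pair of genotypes and the upper pair. Thbs2 rose 1.64-fold in Recql KO (0.72 ± 0.17 SE on the log2 scale, edgeR adjusted p = 0.0101) and 1.73-fold in double KO against Blm KO (0.79 ± 0.17, edgeR adjusted p = 0.0412). The latter call was lost without any of 4 libraries (edgeR adjusted p up to 0.209 without Blm KO replicate 3) and in a fit on those groups alone (0.147). For double KO against WT the difference was 0.48 and did not pass (edgeR adjusted p = 0.341). The interaction was 0.08 (95% interval -0.44 to 0.6).

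Thbs1 (chr2:118111876-118127133, plus strand) encodes thrombospondin-1, which binds the receptors CD47 and CD36 and activates latent TGF-beta. The WT libraries had 7800, 9910 and 9300 CPM, the Blm KO libraries 6490, 15100 and 10400, the Recql KO libraries 13900, 11100 and 12000 and the double KO libraries 12100, 9230 and 10500. The Blm KO libraries spanned 2.33-fold, the widest range of any genotype for this gene, and held both its highest and its lowest value. No comparison passed in the fit on all libraries. All Recql KO libraries were above all WT libraries, and the difference of 1.37-fold (log2 0.45, 95% interval -0.11 to 1.01, edgeR adjusted p = 0.2) passed when only the 6 libraries of these genotypes were fitted (edgeR adjusted p = 0.0371).

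Sparc (chr11:55394500-55423183, minus strand) encodes SPARC, or osteonectin, a collagen-binding protein that takes part in collagen fibril assembly. Its values were tight. WT replicates 1 to 3 had 4140, 3990 and 4510 CPM, those of Blm KO 4680, 4700 and 4790, those of Recql KO 3170, 2750 and 3140 and those of double KO 5580, 4810 and 5180. The 4 groups did not overlap at any step, in the order Recql KO, WT, Blm KO and double KO. Sparc fell 1.4-fold in Recql KO (-0.48 ± 0.1 SE on the log2 scale, edgeR adjusted p = 0.00535), a call kept whichever of the 6 libraries was left out. It rose 1.72-fold in double KO against Recql KO (0.78 ± 0.1, edgeR adjusted p = 0.000653), again kept without any 1 library. The differences from WT of 0.16 in Blm KO and 0.3 in double KO did not pass (edgeR adjusted p = 0.378 and 0.313). The interaction passed (0.62 ± 0.14, edgeR adjusted p = 0.0217): adding the Recql KO label went with a difference of -0.48 on the WT background and of 0.14 on the Blm KO background. That call was lost without WT replicate 3 (edgeR adjusted p = 0.0545), Blm KO replicate 3 (0.0608) or Recql KO replicate 2 (0.0645).

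Markers of several lineages moved in Recql KO, where Tnc, Thbs2 and Sparc moved too. In Double KO vs WT, where 0.121% of all genes passed, no marker of these lineages passed. With so small a share, this does not show that the markers stayed at the WT level. The smooth muscle sum was 973 to 1560 CPM in double KO and 598 to 853 in WT, and the chondrocyte sum 787 to 1870 and 1090 to 2450. Tnc and Thbs2 did not pass there either. For both genes all double KO libraries were above all WT libraries, and 14.1% of all genes did not overlap in this comparison. In Recql KO against WT, where 29.9% of all genes passed and 15.6% fell, 5 of 6 chondrocyte markers tested fell, their sum being 233 to 337 CPM against 1090 to 2450, and Col2a1 was at 28.7 to 59.9 CPM against 495 to 1280. Of 9 fibroblast markers 3 fell and 1 rose, with Col1a1 at 5540 ± 960 CPM against 10000 ± 358 (SD, n = 3, 1.81-fold lower, edgeR adjusted p = 0.00303). The sum of the fibroblast markers was 12200 to 15800 CPM in Recql KO, 23900 to 25300 in WT, 28700 to 37200 in Blm KO and 29200 to 33300 in double KO. Of 5 osteoblast markers 2 fell, and the sum of that list was 60 to 72 CPM against 86.3 to 93.4. In the same comparison 2 of 6 smooth muscle, 3 of 6 endothelial and 4 of 7 epithelial and mesothelial markers fell, and none rose. As well, 1 of 6 macrophage and blood and 1 of 2 skeletal muscle markers fell, and none rose. The skeletal muscle marker was Des, which is also 1 of the 2 smooth muscle markers that fell. Acta1, the other skeletal muscle marker tested, was at 90.7 to 101 CPM against 19.6 to 59.2 in WT and did not pass. Between double KO and Recql KO, where 13.2% of all genes rose, 5 of 6 chondrocyte, 4 of 9 fibroblast, 4 of 6 smooth muscle, 4 of 7 epithelial and mesothelial, 2 of 5 osteoblast, 2 of 6 endothelial and 1 of 2 skeletal muscle markers were higher in double KO. The skeletal muscle marker was again Des, counted in the smooth muscle list too. Of the 2 osteoblast markers, Ibsp was at 0.329 to 58 CPM in double KO. The other, Dmp1, was at 0.79 CPM against 0.0756 in Recql KO, where 3 counts are 0.0506 to 0.0628 CPM. Runx2, Sp7 and Alpl did not pass. No macrophage and blood marker passed. Msln was 24.1-fold and Upk3b 23.5-fold higher (edgeR adjusted p = 0.00123 and 0.00719), and the smooth muscle sum was 973 to 1560 CPM against 504 to 729. The part of these markers in the results for Tnc, Thbs2, Sparc, Postn and Wisp1 was not tested. In bulk RNA, fewer cells of a type and less RNA per cell cannot be told apart.

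Postn (chr3:54361109-54391037, plus strand) encodes periostin, an integrin ligand of the fasciclin family that promotes collagen crosslinking. The WT libraries had 1580, 1290 and 865 CPM, the Blm KO libraries 1120, 1410 and 806, the Recql KO libraries 1020, 652 and 1190 and the double KO libraries 1760, 2060 and 2200. The double KO libraries were above all the others, and the other 3 groups overlapped. Postn rose 2.11-fold in double KO against Recql KO (1.07 ± 0.28 SE on the log2 scale, edgeR adjusted p = 0.0182), a call lost without Recql KO replicate 1 (0.0502) or 2 (0.066) or double KO replicate 3 (0.0555). Against WT it was 1.61-fold and against Blm KO 1.81-fold higher, and neither passed (edgeR adjusted p = 0.404 and 0.117), although DESeq2 called the second (adjusted p = 0.023). The interaction of 1.24 (95% interval 0.38 to 2.09) did not pass (edgeR adjusted p = 0.0663), although it did without WT replicate 3 (0.046) and with DESeq2 (adjusted p = 0.0128).

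Fn1 (chr1:71585520-71653200, minus strand) encodes fibronectin, the adhesive glycoprotein to which many integrins bind and on which other matrix proteins assemble. WT replicates 1 to 3 had 8690, 7730 and 7850 CPM, those of Blm KO 12700, 16800 and 13600, those of Recql KO 11300, 8910 and 8170 and those of double KO 12100, 9320 and 14400. All Blm KO libraries and all double KO libraries were above all WT libraries, and Recql KO overlapped with WT. The difference of Blm KO from WT was 1.77-fold (log2 0.83 ± 0.18 SE) and missed the threshold (edgeR adjusted p = 0.0666, and 0.0835 to 0.234 without any 1 library), while DESeq2 called it (adjusted p = 0.000464). In double KO the difference was 1.47-fold (edgeR adjusted p = 0.306). Of the 10 genes, 2 did not overlap in Blm KO vs WT (Sparc and Fn1), where 24.8% of all genes did not. The numbers were 4 of 10 for Recql KO vs WT (49.3% of all genes) and 6 of 10 for Double KO vs WT (14.1%). They were 5 of 10 for Double KO vs Blm KO (26.2%) and 3 of 10 for Double KO vs Recql KO (43.6%).

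Among the CCN genes, the YAP targets Cyr61 and Ctgf passed in no comparison. Cyr61 (chr3:145646976-145649981, minus strand) encodes an integrin-binding protein. The WT libraries had 1020, 1130 and 1330 CPM, the Blm KO libraries 857, 1320 and 1110, the Recql KO libraries 1040, 863 and 928 and the double KO libraries 1310, 967 and 1200. All neighbouring groups overlapped. The 95% intervals of its log2 difference from WT were -0.46 to 0.29 in Blm KO, -0.68 to 0.08 in Recql KO and -0.38 to 0.37 in double KO (edgeR adjusted p = 0.825, 0.205 and 1).

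Ctgf (chr10:24595442-24598683, plus strand) encodes a profibrotic CCN protein. WT replicates 1 to 3 had 797, 981 and 1160 CPM, those of Blm KO 540, 1240 and 766, those of Recql KO 1570, 1110 and 1030 and those of double KO 1200, 1160 and 1070. The Blm KO libraries were the most scattered, with a coefficient of variation of 42.2% against 5.91% in double KO. The intervals from WT were -0.8 to 0.4 in Blm KO, -0.26 to 0.94 in Recql KO and -0.37 to 0.83 in double KO (edgeR adjusted p = 0.712, 0.365 and 0.814). These intervals do not exclude changes of up to about 1 log2 unit.

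Wisp1 (chr15:66891320-66923201, plus strand) encodes CCN4, a CCN protein first described as a target of Wnt signalling. The WT libraries had 315, 380 and 217 CPM, the Blm KO libraries 248, 274 and 224, the Recql KO libraries 360, 410 and 353 and the double KO libraries 521, 709 and 532. All double KO libraries were above all the others, Recql KO overlapped with WT, and WT overlapped with Blm KO. Wisp1 rose 2.36-fold in double KO against Blm KO (1.24 ± 0.19 SE on the log2 scale, edgeR adjusted p = 0.0175) and 1.57-fold against Recql KO (0.65 ± 0.19, edgeR adjusted p = 0.0294). The call against Blm KO was lost without Blm KO replicate 3 (0.117) or double KO replicate 2 (0.0598), and that against Recql KO without double KO replicate 2 (0.0877) or any Recql KO library (0.058 to 0.0892). Against WT the difference of 1.93-fold missed the threshold (edgeR adjusted p = 0.092), whereas DESeq2 called it (adjusted p = 0.000465). The interaction was 0.94 ± 0.27 (edgeR adjusted p = 0.0479). It passed in 1 of the 12 fits that each left out 1 library, the one without WT replicate 3, with edgeR adjusted p from 0.0186 to 0.115. It did not pass once the Y-linked level was a covariate (0.124) or with no filter on low counts (0.0551).

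Wisp2 (chr2:163820861-163833146, plus strand) encodes CCN5, which lacks the C-terminal cysteine-knot domain of the other CCN proteins. WT replicates 1 to 3 had 92.8, 114 and 61.6 CPM, those of Blm KO 63.4, 227 and 158, those of Recql KO 63.2, 95 and 196 and those of double KO 103, 58 and 150. The spread within each knockout genotype was the widest of the 10 genes, with coefficients of variation of 44.3% to 58.7%, and all groups overlapped. No comparison passed, and the 95% interval from WT ran from -0.42 to 1.9 in Blm KO. Within each knockout genotype, the library high in Y-linked transcripts was the lowest for Wisp2, at 63.4, 63.2 and 58 CPM against 95 to 227 in the other 6 knockout libraries. No other gene of the 10 lay on the same side in all 3 genotypes. With the Y-linked level as a term beside genotype, the coefficient of Wisp2 was -0.208 ± 0.0295 SE per log2 unit (unadjusted p = 4.15e-05, edgeR adjusted p = 0.124), where 4 of 14876 genes (0.0269%) passed and 1122 had an unadjusted p under 0.05. This term was examined after the values of Wisp2 were seen, and the difference of Wisp2 from WT turned from 0.74 to -0.34 in Blm KO, from 0.40 to -0.53 in Recql KO and from 0.21 to -0.66 in double KO when the term was included.

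**Figure D3:**
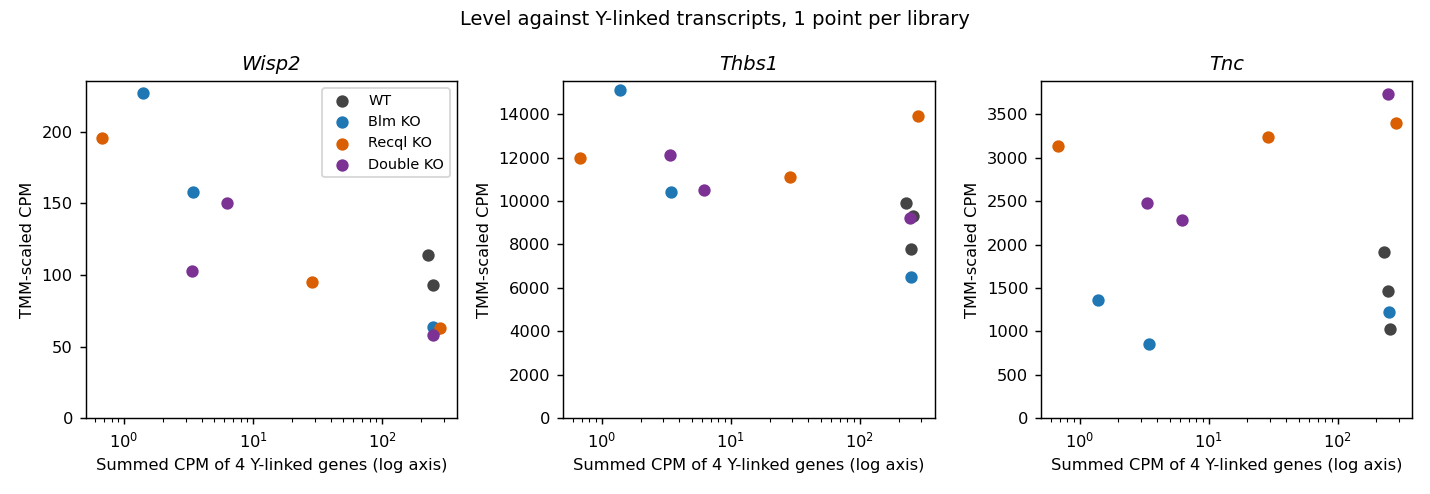
TMM-scaled CPM of Wisp2, Thbs1 and Tnc (vertical axes, from 0) against the summed CPM of 4 Y-linked genes (horizontal log axis), with 1 point per library and colours for genotype. The 3 knockout libraries at the right are at 58 to 63.4 CPM for Wisp2, under the other 6 knockout libraries, and no such order is seen for Tnc.

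Profiles over the 12 libraries were also compared between genes. The measure was the root mean square difference of log2 CPM, each gene centred on its own mean, among 9254 genes that averaged 10 CPM or more. Within the 10 genes, the closest neighbours were Thbs1 and Ctgf (0.23), although Ctgf ranked 168 among all genes by nearness to Thbs1 and Thbs1 ranked 58 by nearness to Ctgf. Sparc and Cyr61 were at 0.25, above the SD of Cyr61 itself (0.22), with ranks of 1292 and 2911. Thbs2 ranked 21 by nearness to Tnc (0.34), and Tnc ranked 598 by nearness to Thbs2. The nearest of all genes to Tnc was Tes (0.20, where the SD of Tnc itself was 0.70), and the nearest to Thbs2 was Plxna4 (0.19). For Sparc it was 4931406P16Rik (0.10), for Postn Adam12 (0.28), for Wisp1 Ncam1 (0.20) and for Fn1 Slc1a4 (0.18). Cyr61 was nearest to Pls3 (0.08), Ctgf to Adam9 (0.15), Thbs1 to Gm10094 (0.13) and Wisp2 to Mfap5 (0.42). These are descriptions of 12 libraries that share genotype.

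The next lists are read against the share of all genes that passed, which in Recql KO vs WT was 29.9% (14.2% up, 15.6% down) and in Double KO vs Recql KO 24.7% (13.2% up, 11.6% down). Of 18 tested genes among 20 further CCN and matricellular genes, 8 fell and 3 rose against WT, with a median log2 fold change of -1.06 (over all genes -0.01). Comp, a thrombospondin of cartilage and tendon, fell 14-fold from 19.1 ± 11.4 to 1.37 ± 0.737 CPM (SD, n = 3, edgeR adjusted p = 0.00144). Thbs4, another thrombospondin gene, fell 19.9-fold from 1.52 CPM (edgeR adjusted p = 0.00281), and Tgfbi, a relative of periostin, was 3.61-fold lower at 50.7 ± 10.1 CPM, compared with 183 ± 3.12 (edgeR adjusted p = 0.00307). Nov, the gene of CCN3, stood at 79.9 ± 44.8 CPM in double KO and at 12 ± 6.78 in Recql KO, a rise of 6.66-fold (edgeR adjusted p = 0.00396). Comp was the 1 gene of this list to pass in Double KO vs Blm KO and fell 11.7-fold (edgeR adjusted p = 0.0192). No gene of the list passed in Blm KO or double KO against WT.

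Of 15 receptors for these proteins, 6 rose and 2 fell in Recql KO (29.9% of all genes passed), with a median of 0.24 against -0.01 over all genes. Lrp1, an endocytic receptor that clears thrombospondins, rose 1.89-fold from 961 ± 82.5 to 1820 ± 32 CPM (edgeR adjusted p = 0.000937), and Itgav, an integrin subunit that binds fibronectin, rose 1.35-fold (edgeR adjusted p = 0.0209). Sdc4, a syndecan that cooperates with integrins on fibronectin, fell 1.8-fold (edgeR adjusted p = 0.0103). In Double KO vs Recql KO, 1 rose and 4 fell (24.7% of all genes passed), with Lrp1 1.55-fold lower (edgeR adjusted p = 0.00597). None passed in the other pairs of genotypes tested.

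Other YAP/TAZ target genes formed a list without Cyr61 and Ctgf. Of 20, 5 rose and 3 fell in Recql KO (29.9% of all genes passed), with a median of 0.15 against -0.01 over all genes. Ankrd1, a cardiac and stress-responsive ankyrin repeat gene, rose 5.48-fold from 94.4 ± 37.3 to 518 ± 157 CPM (edgeR adjusted p = 0.012), and Myof, the myoferlin gene, rose 1.37-fold (edgeR adjusted p = 0.00761). Tgfb2, which encodes a TGF-beta ligand, fell 1.77-fold (edgeR adjusted p = 0.00233). In double KO against Blm KO, Fjx1 rose 2.65-fold (edgeR adjusted p = 0.0401), and it was the 1 gene of the list to pass there. In Double KO vs Recql KO, 3 rose and 5 fell (24.7% of all genes passed), with a median of -0.11. No gene of the list passed in Blm KO or double KO when set against WT.

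In the list of 19 Hippo pathway and TEAD genes, 4 rose and 2 fell in Recql KO, with a median of 0.00. That count is near the 29.9% of all genes that passed. Wwtr1, which encodes TAZ, rose 1.35-fold from 193 ± 7.3 to 259 ± 6.96 CPM (edgeR adjusted p = 0.001), and Wwc1, the gene of the upstream regulator KIBRA, was 2.98-fold lower at 6.6 ± 0.7 CPM, compared with 19.7 ± 2.84 (edgeR adjusted p = 0.00256). Yap1 did not pass, at 228 ± 12.6 CPM in WT and 253 ± 5.34 in Recql KO (log2 fold change 0.15, edgeR adjusted p = 0.0946). No gene of the list passed in Blm KO vs WT, Double KO vs WT or Double KO vs Blm KO. RNA levels do not report whether YAP or TAZ protein is in the nucleus.

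**Figure D4:**
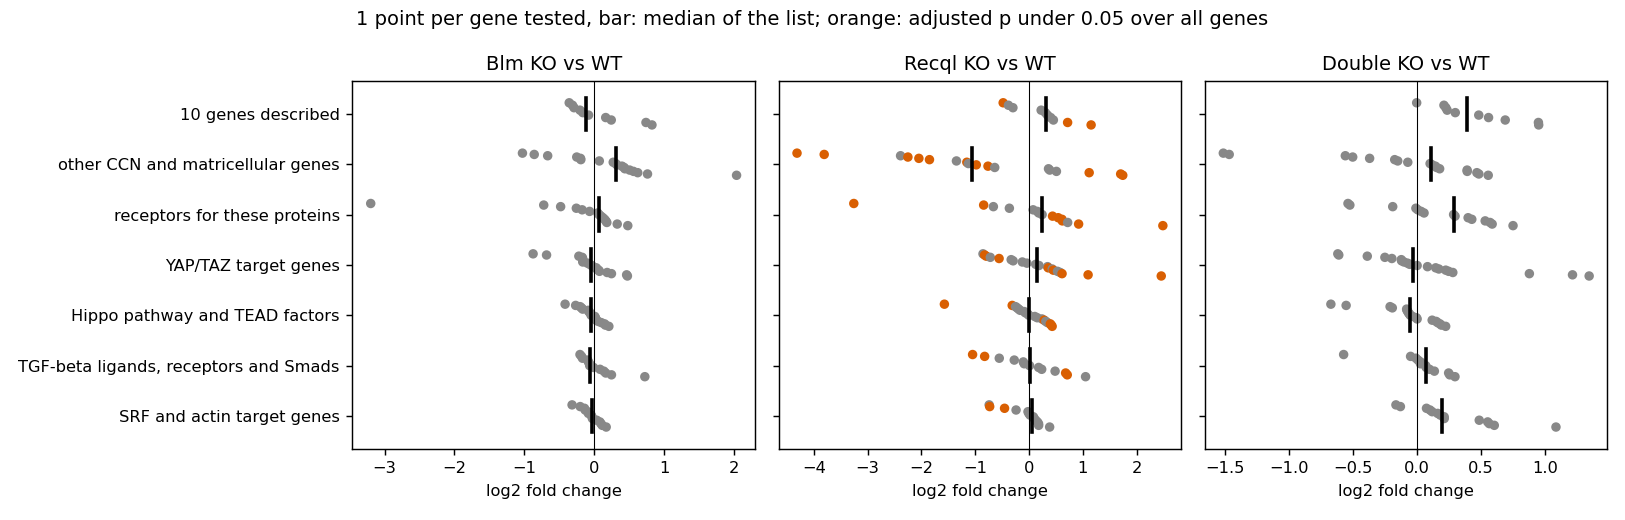
log2 fold change against WT (horizontal axes, which differ in range) for the 10 genes and 6 further lists, with 1 point per gene tested, a bar at the median of each list and orange for an adjusted p under 0.05 by edgeR over all genes. In Recql KO the median of the other CCN and matricellular genes is -1.06 and that of the YAP/TAZ targets is 0.15.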

How the data were processed

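The submitters' processing notes name Bowtie2 2.1.0, RSEM 1.2.15 and the mouse build mm10. Expected counts for every gene and library were deposited by the authors as a single table, and 17.4% to 20.2% of a library's values were not whole (to within 1e-06). Libraries came from a KAPA stranded kit, per the labels' protocols, while annotation version and strand setting are not given in the sources used here.

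Counts were rounded and tested in R 4.3.3 with edgeR 4.0.16 (limma 3.58.1): filterByExpr by group, trimmed mean of M values (TMM) scaling, 1 mean per genotype over all 12 libraries (8 residual degrees of freedom), the quasi-likelihood F test with robust dispersion, and p-values adjusted over 14876 genes by Benjamini and Hochberg. These steps were also run on simulated counts, drawn independently for each library with changes in the Recql KO group only. Such counts do not hold the joint Y-linked and Xist differences between libraries seen here. Levels are TMM-scaled CPM. Standard errors and 95% intervals come from the F statistic. A total of 3 counts corresponds to 0.0506 to 0.0628 CPM. Exon lengths came from GENCODE M21 (mm10), with Ctgf, Cyr61, Wisp1 and Wisp2 matched as Ccn2, Ccn1, Ccn4 and Ccn5.

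The 10 genes, the lists and the tests were chosen with earlier results of these data known. All 10 genes are named in every comparison. From each list, up to 4 called genes with the smallest adjusted p could be named, and those printed are a subset. Yap1 falls outside this rule and was named after its values were seen. Alternatives were RLE scaling, 2 other filters, DESeq2 1.42.0, fits on the groups compared, a replicate block, the Y-linked level as a covariate, only libraries high in Y-linked transcripts (above 100 CPM), and leaving out each library.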

Additional observations from a re-analysis of the deposited data

Results flagged for a closer look

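The change that went with the Recql KO label differed between the Blm KO and WT backgrounds for 2 of the 10 genes, by edgeR's test of the interaction over all genes. For Sparc the difference was 0.62 on the log2 scale (edgeR adjusted p = 0.0217), and for Wisp1 it was 0.94 (edgeR adjusted p = 0.0479), where 10.4% of all genes passed. The call for Sparc passed in 9 of 12 fits that each left out 1 library, and that for Wisp1 in 1 of 12. Each group had 3 libraries, too few to examine single libraries as outliers.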

How the results depend on the processing

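For the 60 combinations of gene and comparison, 793 of 890 values under alternatives kept their side of the threshold with no change of sign counted. Cyr61 in Double KO vs WT, at 0.00, had no sign to change and was counted as kept, with values from -0.27 to 0.11. Of the rest, 47 lost a call, 9 gained one and 41 changed sign, none of the last from or to a call. Cause was not tested for any of these. The number of the 10 genes called in Recql KO vs WT stayed at 3 without any 1 library and was 0 in a fit restricted to high Y-linked libraries, where each knockout genotype keeps 1 library that is assumed to vary like WT. For Double KO vs Blm KO it was 0 there, 0 in a fit on those groups alone and 0 to 3 leaving out a library. For Double KO vs Recql KO it was 0 there and 1 to 3 leaving out a library. For the interaction it was 1 with no filter, 1 with the Y-linked covariate, 0 with high Y-linked libraries only and 0 to 2 leaving out a library. In Blm KO vs WT and Double KO vs WT, where edgeR called 0, DESeq2 called 1 and 3, a replicate block 0 and 1, and no fit without 1 library called any (0 to 0).

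Over all genes, Blm KO vs WT gave 112 calls, 938 with DESeq2, 43 with the Y-linked covariate, 2 with high Y-linked libraries only and 31 to 114 leaving out a library. Recql KO vs WT gave 4444, 1128 with high Y-linked libraries only and 2692 to 3715 leaving out a library. Double KO vs WT gave 18, 338 with DESeq2, 0 on those groups alone, 50 with the replicate block, 43 with the covariate, 3 with high Y-linked libraries only and 8 to 28 leaving out a library. Double KO vs Blm KO gave 291, 1404 with DESeq2, 8 on those groups alone, 762 with the block, 0 with high Y-linked libraries only and 9 to 585 leaving out a library. Double KO vs Recql KO gave 3681, 373 with high Y-linked libraries only and 2157 to 3519 leaving out a library. The interaction gave 1554, 2600 with DESeq2, 821 with the covariate, 5 with high Y-linked libraries only and 549 to 1836 leaving out a library. Deviations from the group means were correlated at -0.17 to 0.23 over 18 pairs of same-numbered libraries of different genotypes, 5 of them over 0.1. Over 36 pairs with different numbers the range was -0.31 to 0.23, also with 5 over 0.1. With means of 3 libraries, these correlations cannot decide if the numbers pair the libraries. The block added 1 call among the 10 genes, Wisp1 in Double KO vs WT (0.97, edgeR adjusted p = 0.0337).

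No value that changed sign was called, in either fit. With the Y-linked covariate and with high Y-linked libraries only, Thbs1 was -0.04 and -0.46 in Blm KO vs WT and 0.06 and 0.49 in Double KO vs Blm KO (0.03 with the replicate block), and Wisp2 was -0.34 and -0.49 for Blm KO vs WT, -0.53 and -0.50 for Recql KO vs WT, -0.66 and -0.63 for Double KO vs WT, and 0.22 and 0.36 in the interaction. With the covariate, Tnc and Thbs2 were each -0.01 in the interaction. In Double KO vs Recql KO with high Y-linked libraries only, Tnc was 0.13, Thbs2 0.20, Cyr61 -0.11 and Fn1 -0.28. Leaving out a library, Blm KO vs WT ranged from -0.10 to 0.50 for Thbs1, -0.37 to 0.05 for Postn, -0.58 to 0.03 for Ctgf and -0.24 to 0.06 for Cyr61. Wisp2 ranged from -0.17 to 0.71 in Recql KO, -0.15 to 0.50 in double KO and -0.56 to 0.38 in Double KO vs Recql KO. In Double KO vs Blm KO, Thbs1 ranged from -0.26 to 0.33 and Cyr61 from -0.07 to 0.24, and in Double KO vs Recql KO Ctgf from -0.23 to 0.09. In the interaction, Tnc ranged from -0.10 to 0.34, Thbs2 from -0.09 to 0.23 and Ctgf from -0.15 to 0.46.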

Other observations

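Tgfb2 and Tgfb3 encode ligands of the TGF-beta family, which induces several of the 10 genes in fibroblasts, and both fell in Recql KO. Of 13 genes of TGF-beta ligands, receptors and Smads, 2 rose and 2 fell there, near the 29.9% of all genes that passed, with a median log2 fold change of 0.01. Tgfb3 fell 2.07-fold from 508 ± 86.9 to 245 ± 42 CPM (SD, n = 3, edgeR adjusted p = 0.00189), and in double KO against Recql KO it rose 2.55-fold to 624 ± 74.3 CPM (edgeR adjusted p = 0.000685). No gene of this list passed in Blm KO or double KO against WT.

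Genes controlled by SRF and actin were tested as a further list of 14. In Recql KO, where 29.9% of all genes passed, 0 rose and 2 fell: Vcl, which encodes the adhesion protein vinculin, 1.66-fold from 1050 ± 60.9 to 630 ± 78.1 CPM (edgeR adjusted p = 0.00747), and Cnn2, a calponin gene, 1.37-fold (edgeR adjusted p = 0.0244). In double KO against Recql KO 4 rose and 1 fell (24.7% of all genes passed), with Vcl 1.75-fold higher at 1100 ± 71.4 CPM (edgeR adjusted p = 0.00542).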
